A study of Homo sapiens with 33 samples.

Results

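Platinum-resistant high-grade serous ovarian carcinoma (HGSOC) lines were each compared with a sensitive line of the same origin, either the parent in culture or a line from the same patient. Of the 29744 genes in the expression table, 7 are described here: ITGB2, C1orf116, LOC101928741, TOX, NREP, LINC00960 and LOC101928000. They were chosen by these measurements, because the mean level of each lay on 1 side of its sensitive line in all 7 resistant-sensitive pairs. ITGB2, C1orf116 and LOC101928741 were higher in the resistant lines, and the other 4 genes were lower. Differences between resistant and sensitive lines are therefore given for these genes as descriptions, and where calls of these pairs are counted they restate the choice. The tests below are between resistant lines of 1 origin and among the sensitive lines, comparisons that the choice did not use although the libraries are the same.

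RNA of 33 libraries from 11 human HGSOC lines was sequenced, with 3 replicates of each line. OVCAR3 and OVCAR4 are sensitive lines, and ResA and ResB of each were derived separately in culture by repeated cisplatin exposure and were not kept in cisplatin afterwards. PEA1 (sensitive) and PEA2 (resistant) came from 1 patient before and after resistance appeared in the clinic, and PEO1 (sensitive), PEO4 and PEO6 (resistant) came from another. The sample labels name only the line and replicate, and the roles of the lines are taken from the study's text. Each of the OVCAR resistant lines and PEA2 is a single derivation. PEO4 and PEO6 are described in the study as probably arising from 1 common clone, so their 2 pairs may not be separate derivations. The OVCAR3, OVCAR4 and patient-derived lines were grown in different media (the PEA and PEO lines in the same one). Of the sensitive lines, 3 serve as the comparator of 2 pairs each, so that the 7 pairs have 4 origins.

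Libraries held between 18058985 and 43394009 counts, with a median of 30611448. Levels are in TPM, the transcript unit scaled to gene length and library total. Replicate 1 of OVCAR4 ResA and replicate 1 of OVCAR4 ResB stood apart, since each correlated best with the other (Pearson's r = 0.965 across genes) and not with its own line (mean r 0.957 and 0.953). All other libraries were closest to a library of their own line. Without replicate 1, the number of genes called in OVCAR4 ResA went from 1784 to 6221 and in OVCAR4 ResB from 2853 to 7241. The log2 fold changes of both pairs are therefore given below with and without replicate 1. Mitochondrial rRNA took 9.23% and 13.1% of counts in these 2 libraries, against 2.02% to 2.47% in replicates 2 and 3 of both lines. In sensitive OVCAR4 it took 5.18% in replicate 1 and more in replicates 2 (14.8%) and 3. Without replicate 1 this share thus separated sensitive from resistant libraries, so values without it are not the cleaner ones. The part of this share in the calls was not tested. The 12 markers of ovarian carcinoma epithelium, keratins and CDH1 among them, summed to at least 2640 TPM in every library except those of PEA1, where they summed to 406 to 449 TPM. SOX17, one of them, was at 0 in all libraries of PEO1 and PEO4.

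The 7 genes have unlike roles. ITGB2 encodes the beta2 integrin chain CD18, which reaches the cell surface only when paired with an alpha chain (ITGAL, ITGAM, ITGAX or ITGAD), and is known from leukocytes, where the pairs bind ICAM proteins on other cells. C1orf116 is mostly expressed in epithelia. TOX encodes an HMG-box nuclear protein known from T cell development and T cell exhaustion, and NREP (P311) encodes a small protein linked to TGF-beta signalling and wound repair. LINC00960, LOC101928741 (LINC02065 in RefSeq) and LOC101928000 (ZNF232-AS1 in RefSeq, antisense to the zinc finger gene ZNF232) are long non-coding RNAs.

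The DNA around the annotated start is shown for 5 members, so that what their promoters hold can be compared. Each stretch of 300 bases, from RefSeq in GRCh38.p14, runs 5′ to 3′ on the gene's strand and ends shortly after the start, and capitals mark matches to any of the 7 motifs searched on both strands. They were the TATA box (TATAAA), the GC box of ubiquitous promoters (GGGCGG), the box named for its letters CCAAT, the AP-1 site (TGANTCA), the E2-box bound by repressors of epithelial genes (CAGGTG), a hexamer of steroid response elements (AGAACA) and the core of the ETS factors (GGAAGT). NREP has 6 annotated starts and LINC00960 has 2, and the first is shown for each. The other NREP stretches lie far from the first, between 111756202 and 111757979 on chromosome 5. Among them they held GC boxes, CCAAT boxes, an E2-box, an ETS core and a TATA box, so the first does not stand for all. No stretch was available for ITGB2 and TOX.
C1orf116, chr1:207032707-207033006, minus strand: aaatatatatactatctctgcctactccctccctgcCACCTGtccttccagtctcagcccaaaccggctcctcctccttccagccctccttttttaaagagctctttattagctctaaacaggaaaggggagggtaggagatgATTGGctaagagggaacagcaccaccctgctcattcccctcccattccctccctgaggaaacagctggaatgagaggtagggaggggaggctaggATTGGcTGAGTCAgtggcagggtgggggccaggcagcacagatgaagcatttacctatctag
LOC101928741, chr5:66209397-66209696, minus strand: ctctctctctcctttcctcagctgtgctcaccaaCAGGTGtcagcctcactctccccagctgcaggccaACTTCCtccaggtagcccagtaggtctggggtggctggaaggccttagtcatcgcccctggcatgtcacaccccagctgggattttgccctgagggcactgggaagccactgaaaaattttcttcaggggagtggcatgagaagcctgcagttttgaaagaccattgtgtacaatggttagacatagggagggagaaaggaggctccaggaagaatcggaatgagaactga
NREP, chr5:111976883-111977182, minus strand: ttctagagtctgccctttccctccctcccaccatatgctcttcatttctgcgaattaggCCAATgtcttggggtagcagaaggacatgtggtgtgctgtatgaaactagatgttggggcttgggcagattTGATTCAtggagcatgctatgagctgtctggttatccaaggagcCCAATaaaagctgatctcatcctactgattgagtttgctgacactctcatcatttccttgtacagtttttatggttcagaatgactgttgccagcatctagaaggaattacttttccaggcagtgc
LINC00960, chr3:75672031-75672330, plus strand: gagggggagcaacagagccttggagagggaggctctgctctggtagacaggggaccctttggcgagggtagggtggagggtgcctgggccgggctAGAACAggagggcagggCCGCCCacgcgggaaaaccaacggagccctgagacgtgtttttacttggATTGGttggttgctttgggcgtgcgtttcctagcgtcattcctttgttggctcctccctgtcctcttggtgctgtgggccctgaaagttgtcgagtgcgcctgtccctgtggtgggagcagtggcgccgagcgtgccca
LOC101928000, chr17:5111685-5111984, plus strand: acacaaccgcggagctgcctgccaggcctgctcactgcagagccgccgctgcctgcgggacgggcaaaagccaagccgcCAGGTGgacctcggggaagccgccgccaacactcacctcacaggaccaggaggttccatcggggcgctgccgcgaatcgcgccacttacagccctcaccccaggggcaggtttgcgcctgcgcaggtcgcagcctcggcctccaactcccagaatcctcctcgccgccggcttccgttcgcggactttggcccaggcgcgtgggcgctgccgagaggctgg

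The C1orf116 stretch held 2 CCAAT boxes, an E2-box and an AP-1 match that ends at the start itself (positions -6 to 0, with 0 the annotated start). The NREP stretch shown also held 2 CCAAT boxes and an AP-1 match, at -120 to -114. The stretch of LINC00960 held a GC box, a CCAAT box and a steroid response hexamer, and those of LOC101928741 and LOC101928000 each held an E2-box, with an ETS core besides in LOC101928741. No motif was in all 5. Of 35116 promoter stretches of the same length, 7.71% held the AP-1 letters, 34.6% the CCAAT box, 20.6% the E2-box, 45% the GC box, 22.8% the ETS core, 14.8% the steroid response hexamer and 11.5% the TATA box. These matches describe letters only, and no binding was measured.

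ITGB2, the first of the genes that were higher, was near the bottom of the scale in the sensitive OVCAR lines. Its 3 OVCAR3 libraries held 0.249, 0.12 and 0.241 TPM, against 1.71, 1.76 and 1.35 in ResA and 5.59, 4.91 and 6.65 in ResB. OVCAR4 held 0.514, 0.443 and 0.466 TPM, ResA 3.91, 6.53 and 6.01, and ResB 1.93, 2.85 and 3.51. In both families every resistant library lay above every sensitive one. PEA1 held 1.51, 0.996 and 1.07 TPM and PEA2 3.18, 3.3 and 2.84. PEO1 held 22, 16.6 and 14.9 TPM, PEO4 44.4, 32.7 and 20.1, and PEO6 24.6, 37.7 and 43.3. PEO4 was the only resistant line whose ITGB2 libraries overlapped those of its sensitive line, as its lowest library lay below the highest of PEO1. The log2 fold changes were 2.86 ± 0.50 (SE) and 4.72 ± 0.53 in OVCAR3 ResA and ResB, 2.97 ± 0.45 and 1.93 ± 0.50 in OVCAR4 ResA and ResB, 1.52 ± 0.38 in PEA2, 0.84 ± 0.18 in PEO4 and 0.94 ± 0.26 in PEO6. Without replicate 1 they were 3.03 ± 0.47 and 1.96 ± 0.60 in OVCAR4 ResA and ResB. The smaller changes were in the family whose sensitive line had the highest level.

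C1orf116 was low in the OVCAR sensitive lines and high in PEO1. OVCAR3 held 2.99, 2.45 and 2.51 TPM, against 32.5, 26.9 and 27.8 in ResA and 13, 7.86 and 23.3 in ResB. OVCAR4 held 0.631, 0.402 and 0.778 TPM, ResA 4.0, 5.13 and 5.07, and ResB 1.39, 4.04 and 4.49. All resistant OVCAR libraries lay above their sensitive ones, although ResB of both families was spread widely. PEA1 held 3.85, 1.97 and 8.55 TPM and PEA2 35.6, 29.2 and 29.4. The summed epithelial markers moved with this pair, from 406 to 449 TPM in PEA1 to 4420 to 4740 TPM in PEA2, and their part in the result was not tested. PEO1 held 21.5, 14.5 and 28.4 TPM, PEO4 47.3, 35.5 and 31.4, and PEO6 24.8, 27.3 and 46.2. Here PEO6 overlapped PEO1 while PEO4 did not. The log2 fold changes ran from 0.57 ± 0.22 in PEO6 and 0.90 ± 0.20 in PEO4 to 3.07 ± 0.31 in PEA2 and 3.32 ± 0.13 in OVCAR3 ResA, with 2.22 ± 0.35, 2.52 ± 0.41 and 1.81 ± 0.46 in OVCAR3 ResB, OVCAR4 ResA and OVCAR4 ResB. Without replicate 1 the OVCAR4 values were 2.49 ± 0.40 and 2.16 ± 0.42.

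LOC101928741, a non-coding RNA, was under 5 TPM in every library. PEO1 held 0.753, 0.633 and 0.328 TPM, against 4.58, 4.12 and 4.5 in PEO4 and 4.59, 2.83 and 2.85 in PEO6. PEA1 held 0.408, 0.255 and 0.108 TPM and PEA2 2.13, 1.8 and 2.36. In these families the resistant libraries were well clear of the sensitive ones, with log2 fold changes of 3.01 ± 0.42, 2.59 ± 0.48 and 3.19 ± 0.63 in PEO4, PEO6 and PEA2. OVCAR3 held 0.0702, 0.135 and 0.102 TPM, ResA 1.9, 2.36 and 1.07, and ResB 0.547, 0.386 and 0.19, and the log2 fold changes were 3.98 ± 0.67 and 1.71 ± 1.28. In the OVCAR4 family the gene was close to undetected: OVCAR4 had 0, 0 and 1 counts, ResA had 8, 1 and 1, and ResB had 3, 0 and 4. The ratio of these summed counts, scaled to library size, was 7.41 in ResA (95% exact interval 1.05 to 322, counting error only) and 5.02 in ResB (0.645 to 226). Most of the ResA counts came from replicate 1, the library that stood apart, and without it the log2 fold changes were 0.45 ± 4.86 and 0.04 ± 4.83, so at this depth a difference in the OVCAR4 family was not detectable.

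**Figure D1:**
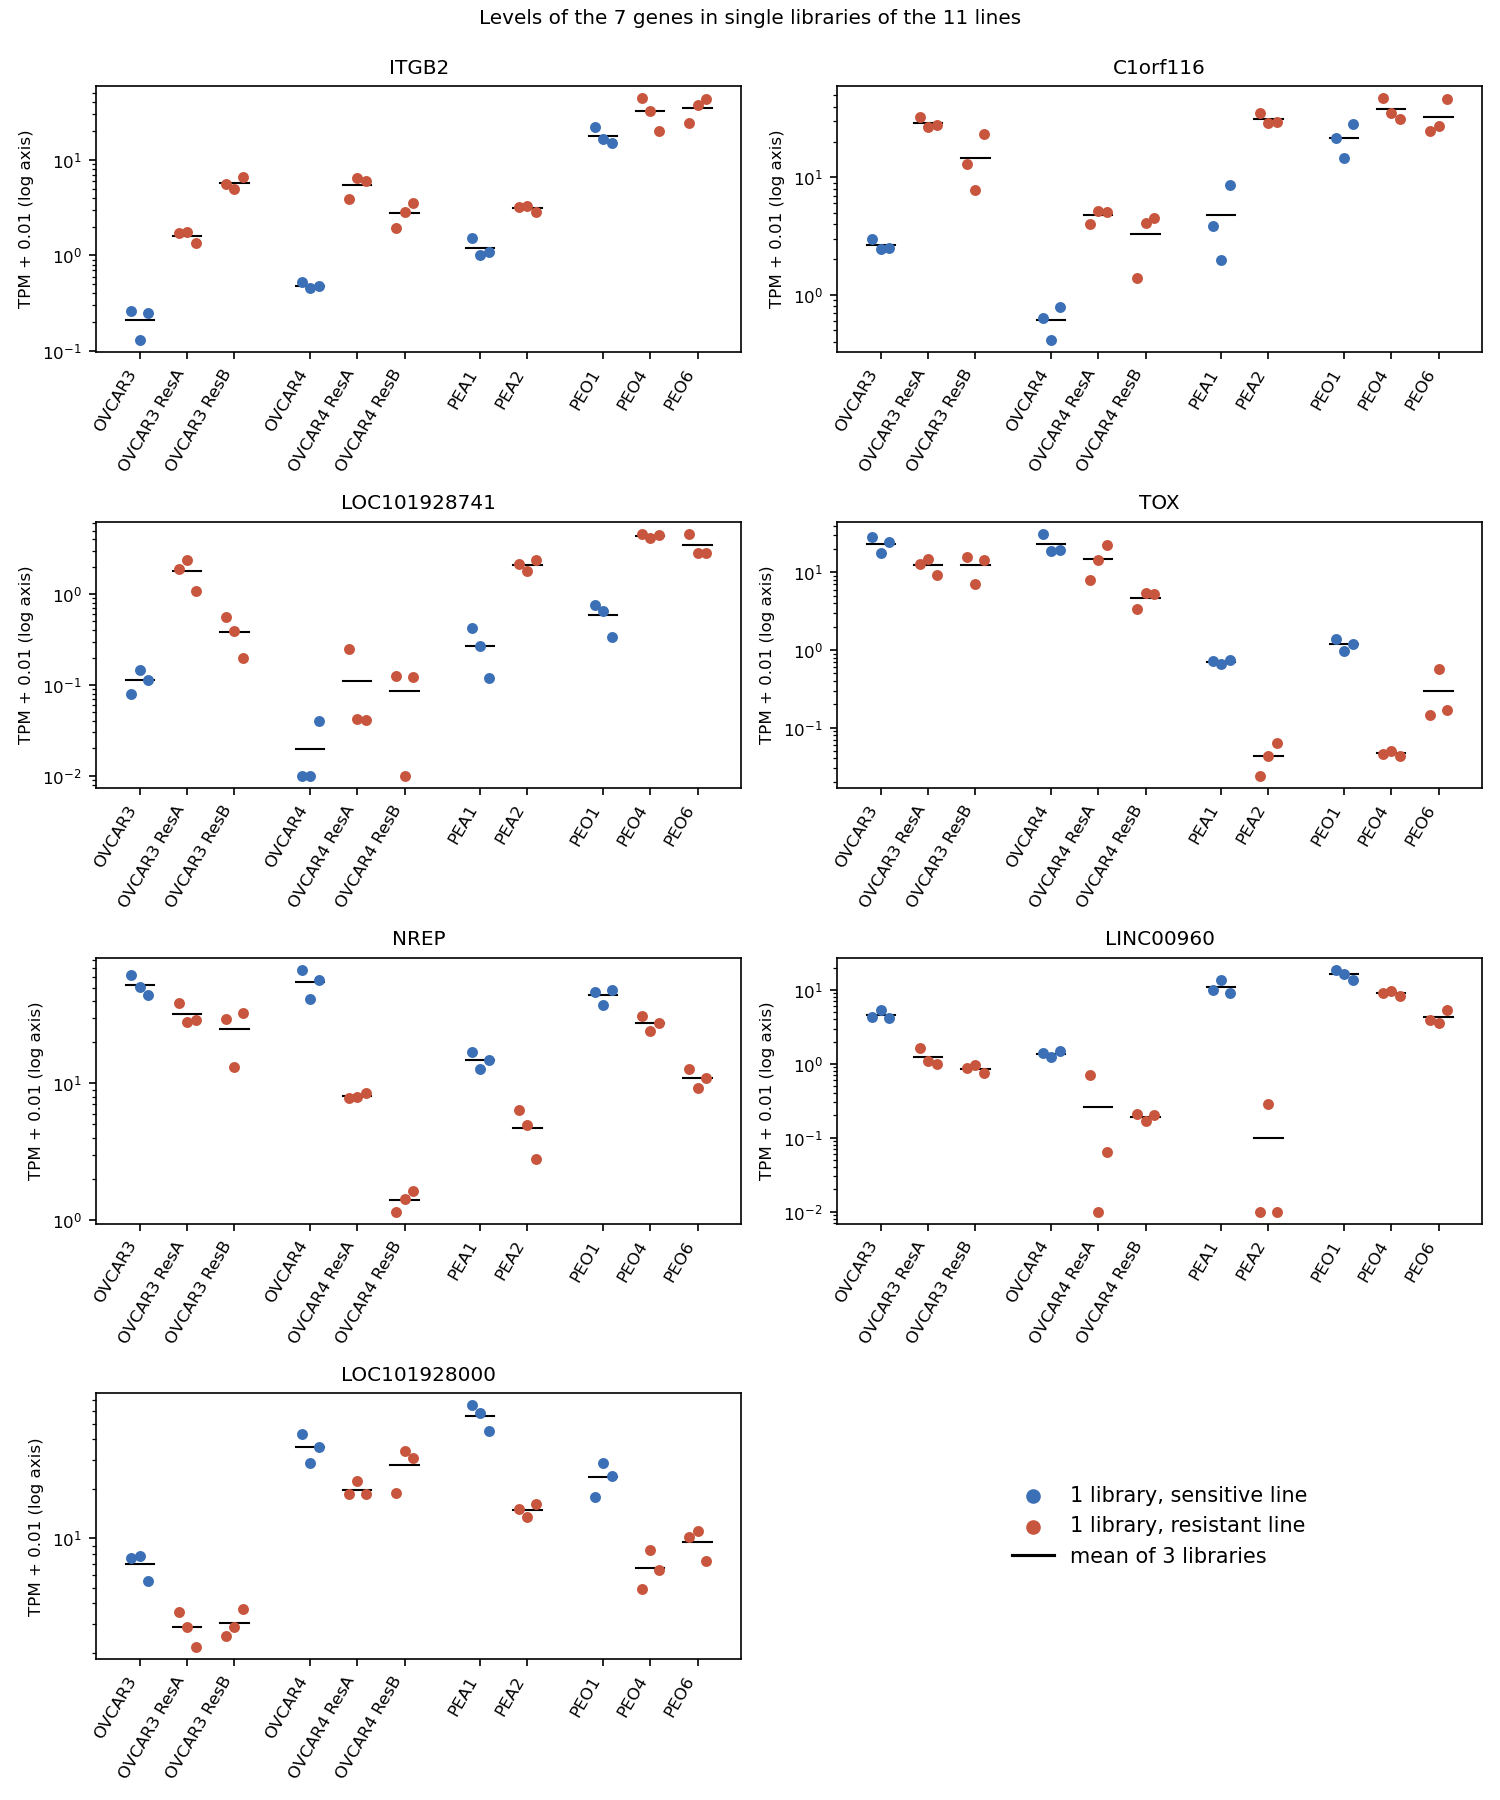
Level of each of the 7 genes in every library, as TPM plus 0.01 on a log axis, by line; blue points are sensitive and red points resistant lines, and black bars are means of 3 libraries. ITGB2, C1orf116 and LOC101928741 lie higher and TOX, NREP, LINC00960 and LOC101928000 lower in each resistant line than in the sensitive line of its family, but sensitive lines differ among themselves, with ITGB2 at 17.9 TPM in PEO1 and 0.203 TPM in OVCAR3.

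TOX, the first of the genes that were lower, was abundant in OVCAR3 and OVCAR4 and scarce in the other families. OVCAR3 held 28.4, 17.6 and 24.5 TPM, ResA 13, 14.9 and 9.12, and ResB 15.6, 7.03 and 14.5. OVCAR4 held 31.4, 18.7 and 19.6 TPM, ResA 7.88, 14.4 and 22.3, and ResB 3.38, 5.49 and 5.3. TOX in OVCAR4 ResA overlapped OVCAR4, as its highest library lay above the lower 2 of OVCAR4, whereas ResB was separate. PEA1 held 0.702, 0.642 and 0.742 TPM, and PEA2 held 1, 3 and 4 counts, which gave a count ratio of 0.0528 (95% exact interval 0.0224 to 0.107). PEO1 held 1.39, 0.967 and 1.17 TPM, PEO4 held 2, 3 and 2 counts (ratio 0.0324, 0.0129 to 0.0677), and PEO6 held 0.134, 0.555 and 0.16 TPM. TOX was thus nearly absent from PEA2 and PEO4 and moderately lower in the OVCAR3 lines, with log2 fold changes of -4.31 ± 0.84 and -4.96 ± 0.72 against -1.07 ± 0.17 and -1.09 ± 0.33 in OVCAR3 ResA and ResB. The changes were -1.25 ± 0.38, -2.85 ± 0.32 and -2.33 ± 0.58 in OVCAR4 ResA, OVCAR4 ResB and PEO6, and -0.85 ± 0.23 and -2.67 ± 0.21 in the OVCAR4 lines without replicate 1.

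NREP had the highest mean level of the 7, at 25.1 TPM over all libraries. OVCAR3 held 61.8, 50.6 and 44.1 TPM, ResA 38.9, 28.1 and 29.0, and ResB 29.6, 13.2 and 32.8. OVCAR4 held 68.1, 41.2 and 56.7 TPM, ResA 7.79, 7.88 and 8.46, and ResB 1.14, 1.42 and 1.61. The fall was modest in OVCAR3 ResA (log2 fold change -0.83 ± 0.12) and OVCAR3 ResB (-1.22 ± 0.34), and large in OVCAR4 ResA (-3.26 ± 0.30, and -3.28 ± 0.23 without replicate 1) and OVCAR4 ResB (-5.82 ± 0.34, and -5.75 ± 0.25). PEA1 held 16.9, 12.7 and 14.7 TPM and PEA2 6.36, 4.93 and 2.78. PEO1 held 46.7, 37.2 and 48.1 TPM, PEO4 31.0, 24.1 and 27.6, and PEO6 12.8, 9.27 and 11. No resistant library reached its sensitive line, and the log2 fold changes were -1.57 ± 0.30 in PEA2, -0.62 ± 0.18 in PEO4 and -2.02 ± 0.24 in PEO6.

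LINC00960 was highest in the patient-derived sensitive lines. PEA1 held 9.9, 13.7 and 9.08 TPM, and the PEA2 libraries had 0, 7 and 0 counts, a count ratio of 0.00991 (95% exact interval 0.00397 to 0.0205). PEO1 held 18.9, 16.3 and 13.8 TPM, PEO4 9.17, 9.57 and 8.34, and PEO6 3.9, 3.59 and 5.33. The RNA was therefore almost absent from PEA2 (log2 fold change -7.12 ± 0.79) and moderately lower in PEO4 (-0.81 ± 0.25) and PEO6 (-1.96 ± 0.32). OVCAR3 held 4.32, 5.37 and 4.14 TPM, ResA 1.62, 1.09 and 0.971, and ResB 0.863, 0.964 and 0.737. OVCAR4 held 1.39, 1.23 and 1.48 TPM, ResA 0.699, 0 and 0.0532, and ResB 0.201, 0.156 and 0.194. No library overlapped, but OVCAR4 ResA was split, with 14 counts in replicate 1 and 0 and 1 in the others. The log2 fold changes were -2.07 ± 0.39, -2.54 ± 0.59, -4.37 ± 1.29 and -3.51 ± 0.92 in the 4 OVCAR lines, and OVCAR4 ResA and ResB gave -6.49 ± 1.74 and -3.84 ± 1.18 without replicate 1.

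LOC101928000 was highest in PEA1, at 64.6, 57.9 and 45.2 TPM, against 15.1, 13.4 and 16.2 in PEA2. PEO1 held 17.9, 28.7 and 24.1 TPM, PEO4 4.91, 8.43 and 6.37, and PEO6 10.2, 11.1 and 7.27. These resistant lines did not overlap their sensitive lines. OVCAR3 held 7.6, 7.77 and 5.45 TPM, ResA 3.55, 2.85 and 2.15, and ResB 2.53, 2.86 and 3.7. OVCAR4 held 43.4, 28.6 and 36.2 TPM, ResA 18.6, 22.2 and 18.6, and ResB 18.9, 33.9 and 30.7. The overlap was in OVCAR4 ResB, where 2 libraries lay above the lowest of OVCAR4. The log2 fold changes were the most even of the 7 genes, from -1.02 ± 0.37 in OVCAR4 ResB to -1.82 ± 0.36 in PEO4, with -1.44 ± 0.52, -1.27 ± 0.71, -1.40 ± 0.40, -1.79 ± 0.34 and -1.31 ± 0.41 in OVCAR3 ResA, OVCAR3 ResB, OVCAR4 ResA, PEA2 and PEO6. Without replicate 1 OVCAR4 ResA and ResB gave -1.49 ± 0.39 and -0.94 ± 0.37. Whether counting used strand is not given in the sources used here. It is thus not known whether reads of this gene and of ZNF232 were told apart where they overlap.

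Across the 49 combinations of 7 genes and 7 pairs, the 3 resistant libraries lay wholly on 1 side of the 3 sensitive ones in 44. The other 5 were ITGB2 in PEO4 (8 of 9 library pairs in the stated direction), C1orf116 in PEO6 (7 of 9), TOX in OVCAR4 ResA (7 of 9), LOC101928000 in OVCAR4 ResB (7 of 9) and LOC101928741 in OVCAR4 ResB (6 of 9). NREP and LINC00960 were separate in every pair, with 63 of 63 library pairs in the stated direction. Since the genes were selected on these levels, the counts describe the choice, and separation of 3 libraries from 3 was common among all genes. All 7 members were separate in OVCAR3 ResA, where 19.8% of genes were separate and higher and 15.7% separate and lower, and again in OVCAR3 ResB (10.3% and 9.3%). In OVCAR4 ResA 6 were separate (25.8% and 4.87%) and 5 in OVCAR4 ResB (27.5% and 7.29%). In these OVCAR4 lines the median gene was itself higher than in OVCAR4 on the log2(TPM + 1) scale, by 0.40 and 0.41, whereas the median DESeq2 fold change was within 0.02 of 0. In the patient-derived pairs the separate members were 7 in PEA2 (21.6% higher, 27.4% lower), 6 in PEO4 (16.6% and 18.6%) and 6 in PEO6 (23.2% and 16.2%). The count of 44 became 45 on size-factor scaled counts, 47 on library-scaled counts (CPM) and 45 without replicate 1.

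With DESeq2 at an adjusted p under 0.05, ITGB2, C1orf116, TOX, NREP and LINC00960 were called in all 7 pairs, LOC101928000 in 6 and LOC101928741 in 4, which again restates the choice. Over the 7 pairs counted together, 15.0% of tested genes were called higher and 14.8% lower. The shares called higher and lower were 22.0% and 22.9% in OVCAR3 ResA, 4.1% and 3.57% in OVCAR3 ResB, 6.68% and 5.22% in OVCAR4 ResA and 9.09% and 8.77% in OVCAR4 ResB. They were 23.3% and 23.8% in PEA2, 16.6% and 16.7% in PEO4 and 21.2% and 20.3% in PEO6. Of 17933 genes with a fold change in all 7 pairs, 331 (1.85%) were above 0 and 343 (1.91%) below 0 in all 7, 5 (0.0279%) were called in 1 direction in all 7, and 10 (0.0558%) had libraries separate in 1 direction in all 7. Ranked by the weakest adjusted p over the 7 pairs, C1orf116 was the last of the 5 genes called in all 7, with its weakest value in PEO6 (0.57 ± 0.22). The next were NR2F1, an orphan nuclear receptor gene (weakest in PEA2, -3.56 ± 1.64), TXNIP, which encodes a thioredoxin-binding protein (OVCAR3 ResB, 0.99 ± 0.41), and NR2F1-AS1 (OVCAR3 ResA, -0.65 ± 0.37). These 3 also lay on 1 side of 0 in all 7 pairs but were not among the members, while LOC101928000 and LOC101928741 were, so the choice did not follow this ranking.

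**Figure D2:**
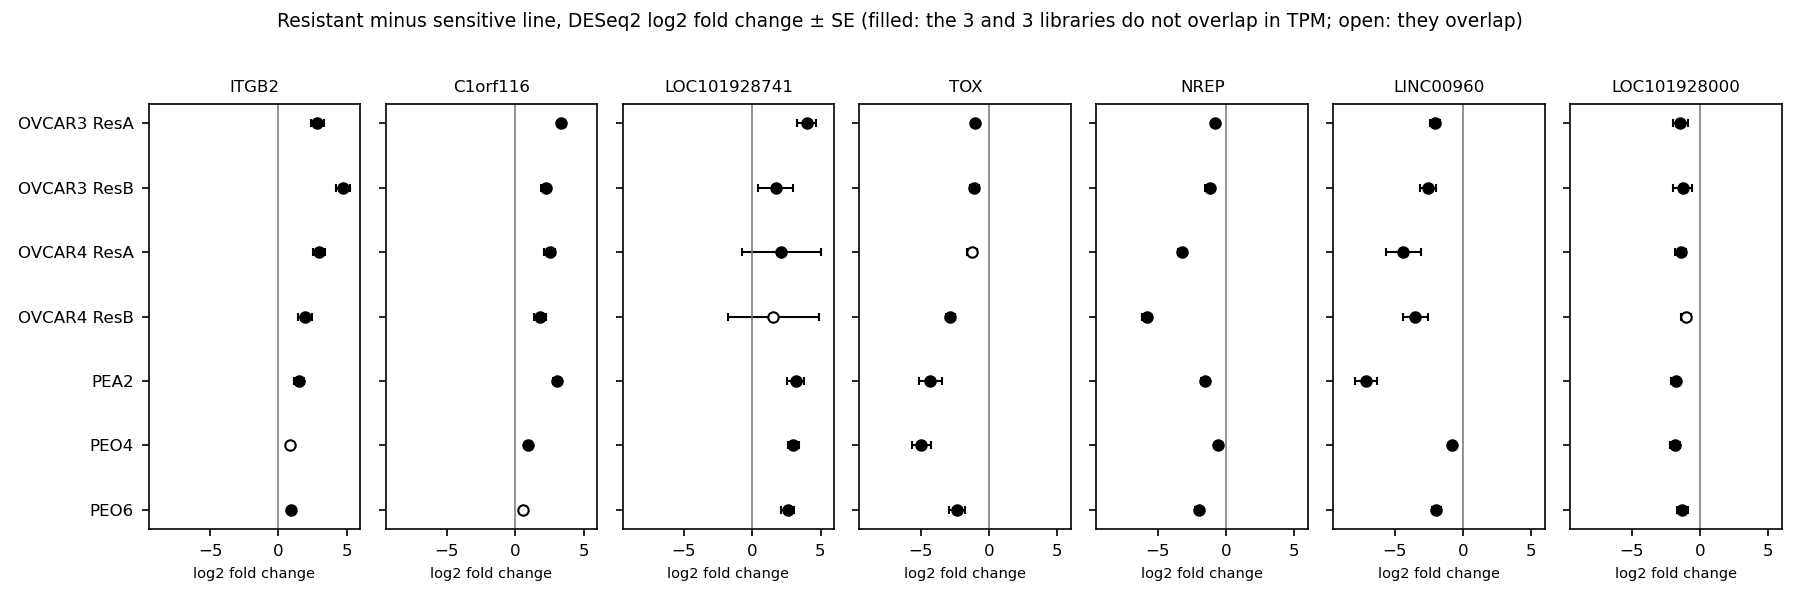
DESeq2 log2 fold change with its SE (bars) of the 7 genes in the 7 resistant-sensitive pairs; filled points mark pairs in which the 3 resistant and 3 sensitive libraries did not overlap and open points the 5 in which they did. Points of 1 gene lie on 1 side of 0 because the genes were chosen so, and their sizes differ widely, as in NREP from -0.62 in PEO4 to -5.82 in OVCAR4 ResB.

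No gene's level separated resistant from sensitive lines once families were mixed. Each resistant line can be set against the 3 sensitive lines of other families, giving 21 comparisons of line means per gene, which were made after the genes were chosen on their own families and have no test. The stated direction held in 18 of 21 for NREP and LINC00960, in 16 for ITGB2, C1orf116 and LOC101928000, in 14 for LOC101928741 and in 13 for TOX. PEO1, a sensitive line, held more ITGB2 (17.9 TPM) than any resistant line of another family. For TOX the order was set largely by family, since OVCAR3 ResA and ResB, with 9.12 to 14.9 and 7.03 to 15.6 TPM, were far above the sensitive PEA1 and PEO1.

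The order of the lines was only partly resolved. From the highest line mean to the lowest, the ratio was 701 for TOX, 442 for LOC101928741, 180 for LINC00960, 173 for ITGB2, 63.1 for C1orf116, 39.8 for NREP and 19.6 for LOC101928000. Of the 10 steps between neighbouring lines in that order, the libraries overlapped in 9 for C1orf116, 8 for LOC101928741, 7 for NREP, 6 for LOC101928000 and 5 each for ITGB2, TOX and LINC00960. The top of the order was resistant for ITGB2, C1orf116 and LOC101928741 (PEO4 or PEO6), and the bottom was resistant for TOX, NREP, LINC00960 and LOC101928000. That the extreme line was resistant was fixed by the choice, since each sensitive line had a resistant line of its family on the stated side.

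For ITGB2 the order began with PEO6, PEO4 and PEO1 (35.2 ± 9.59, 32.4 ± 12.2 and 17.9 ± 3.71 TPM, mean ± SD, n = 3 here and below), whose neighbours overlapped, followed by OVCAR3 ResB and OVCAR4 ResA (5.72 ± 0.877 and 5.48 ± 1.39), PEA2 and OVCAR4 ResB (3.11 ± 0.237 and 2.76 ± 0.789), and OVCAR3 ResA and PEA1 (1.61 ± 0.227 and 1.19 ± 0.281). OVCAR4 (0.474 ± 0.036) and OVCAR3 (0.203 ± 0.0724) were each separate at the bottom. For C1orf116 an unbroken chain of overlapping neighbours ran from PEO4 (38.1 ± 8.25 TPM) through PEO6, PEA2, OVCAR3 ResA, PEO1, OVCAR3 ResB, PEA1, OVCAR4 ResA and OVCAR4 ResB to OVCAR3 (2.65 ± 0.293), and only OVCAR4 (0.604 ± 0.19) was separate. For LOC101928741 the upper lines PEO4 and PEO6 (4.4 ± 0.247 and 3.43 ± 1.01 TPM) and then PEA2 and OVCAR3 ResA (2.1 ± 0.283 and 1.78 ± 0.65) were separate from the rest, in which each neighbour overlapped the next from PEO1 (0.571 ± 0.219) down to OVCAR4 (0.00996 ± 0.0172). Most neighbours of C1orf116 and LOC101928741 were thus not resolved.

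For TOX the chain of overlapping lines at the top held OVCAR3, OVCAR4 and 3 of their 4 derivatives (23.5 ± 5.43 to 12.3 ± 2.96 TPM), followed by separate steps to OVCAR4 ResB (4.72 ± 1.17), PEO1 (1.18 ± 0.212), PEA1 (0.695 ± 0.0505) and PEO6 (0.283 ± 0.236). PEO4 (0.0364 ± 0.00296) and PEA2 (0.0335 ± 0.0197) were lowest and overlapped. For NREP the chain ran from OVCAR4 (55.3 ± 13.5 TPM) down to PEO6 (11 ± 1.78), with OVCAR4 ResA (8.04 ± 0.364), PEA2 (4.69 ± 1.8) and OVCAR4 ResB (1.39 ± 0.236) each separate below it. For LINC00960 PEO1 stood alone (16.3 ± 2.57 TPM), above PEA1 and PEO4 (10.9 ± 2.47 and 9.03 ± 0.626), OVCAR3 and PEO6 (4.61 ± 0.662 and 4.27 ± 0.929), OVCAR4 and OVCAR3 ResA (1.37 ± 0.125 and 1.23 ± 0.343), and OVCAR3 ResB (0.854 ± 0.114). The lowest were OVCAR4 ResA (0.251 ± 0.389), OVCAR4 ResB and PEA2 (0.0907 ± 0.157), which overlapped. For LOC101928000 PEA1 stood alone (55.9 ± 9.88 TPM), then a chain from OVCAR4 (36.1 ± 7.36) to OVCAR4 ResA (19.8 ± 2.13), PEA2 (14.9 ± 1.45), a chain from PEO6 (9.51 ± 1.99) to PEO4 (6.57 ± 1.77), and OVCAR3 ResB and ResA (3.03 ± 0.602 and 2.85 ± 0.701). Sensitive lines of 1 family lay among resistant lines of others in all of these orders.

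All 7 genes differed among the 4 sensitive lines by a DESeq2 likelihood-ratio test, in which 78.5% of all tested genes were called. TOX was 33.8 times higher in OVCAR3 (23.5 TPM) than in PEA1 (0.695 TPM; adjusted p = 1.82e-207). ITGB2 was 88.2 times higher in PEO1 (17.9 TPM) than in OVCAR3 (0.203 TPM; adjusted p = 3.49e-119), and C1orf116 35.6 times higher in PEO1 (21.5 TPM) than in OVCAR4 (0.604 TPM; adjusted p = 4.36e-64). The sensitive lines thus spanned a wider range of ITGB2 than any resistant line lay from its own sensitive line. NREP differed 3.74 times, from 55.3 TPM in OVCAR4 to 14.8 in PEA1 (adjusted p = 7.8e-42), and LINC00960 11.9 times, from 16.3 TPM in PEO1 to 1.37 in OVCAR4 (adjusted p = 7.45e-25). LOC101928000 differed 8.05 times, from 55.9 TPM in PEA1 to 6.94 in OVCAR3 (adjusted p = 2.42e-19). LOC101928741 was highest in PEO1 (0.571 TPM) and was called (adjusted p = 0.000926), but not without replicate 1 (adjusted p = 0.139) or without replicate 2 (adjusted p = 0.109).

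Resistant lines of 1 origin differed in the levels of some of the genes. Of 21 comparisons between 2 resistant lines, DESeq2 called 9, left 11 uncalled and gave no adjusted p for 1. In the OVCAR4 family, 32.8% of all tested genes were called, and NREP was lower in ResB than in ResA (log2 difference -2.56 ± 0.29, adjusted p = 1.59e-17), as was TOX (-1.60 ± 0.22, adjusted p = 6.22e-12). In both genes every ResB library lay below every ResA library, and both calls held under all alternatives. ITGB2 was also lower in ResB (log2 difference -1.03 ± 0.25, adjusted p = 0.000215, and 0.199 without replicate 2), and C1orf116 (log2 difference -0.69 ± 0.27, adjusted p = 0.0391). The C1orf116 libraries overlapped, and its adjusted p was 0.378 with no replicate block and 0.313, 0.189 and 0.056 without replicates 1, 2 and 3. LOC101928000 was not called (0.40, 95% interval -0.17 to 0.96, adjusted p = 0.319). LINC00960 was not called either (1.07, -2.25 to 4.38, adjusted p = 0.699), and its direction turned with the measure, as the mean TPM was lower in ResB (0.184 against 0.251), the count ratio was 0.647 (95% exact interval 0.26 to 1.54) and the log2 difference was -0.71 with no replicate block. LOC101928741 had no adjusted p (-0.51, -4.11 to 3.09).

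In the OVCAR3 family, 13.5% of tested genes were called between ResB and ResA. ITGB2 was higher in ResB by 1.85 ± 0.41 (DESeq2 adjusted p = 0.000156), with all 3 ResB libraries above those of ResA, but its adjusted p was 0.0866 without replicate 2. C1orf116 was lower in ResB (log2 difference -1.10 ± 0.34, adjusted p = 0.014, and 0.239 and 0.475 without replicates 1 and 2). LOC101928741 was lower (log2 difference -2.25 ± 0.70, adjusted p = 0.0145, and 0.156, 0.387 and 0.082 without each replicate in turn). The 3 genes that were higher in both OVCAR3 derivatives thus did not rank them alike. None of the genes lower in resistance was called. Their differences were -0.02 (95% interval -0.75 to 0.71, adjusted p = 0.986) for TOX, -0.39 (-1.07 to 0.28, adjusted p = 0.551) for NREP, -0.47 (-2.09 to 1.15, adjusted p = 0.816) for LINC00960 and 0.17 (-1.55 to 1.88, adjusted p = 0.947) for LOC101928000, intervals wide enough to hold sizeable differences.

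Between PEO6 and PEO4, with 18.2% of tested genes called, NREP was lower in PEO6 (log2 difference -1.40 ± 0.31, DESeq2 adjusted p = 0.000122, and 0.081 without replicate 2). LINC00960 was lower (log2 difference -1.15 ± 0.40, adjusted p = 0.0253, and 0.26 and 0.566 without replicates 1 and 2). In both genes no PEO6 library reached a PEO4 library. TOX was at 0.134, 0.555 and 0.16 TPM in PEO6 against 2, 3 and 2 counts in PEO4, a count ratio of 7.34 (95% exact interval 3.37 to 19.0), but with a log2 difference of 2.65 ± 1.14 it was not called (adjusted p = 0.0919). Without the replicate block TOX was called (adjusted p = 0.016). ITGB2 (0.10, 95% interval -0.56 to 0.76, adjusted p = 0.889), C1orf116 (-0.33, -0.94 to 0.28, adjusted p = 0.513), LOC101928741 (-0.45, -1.28 to 0.37, adjusted p = 0.507) and LOC101928000 (0.50, -0.62 to 1.63, adjusted p = 0.605) were not called. Both genes that passed between the PEO lines were thus among those lower in resistance, and NREP was called in the OVCAR4 comparison as well.

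**Figure D3:**
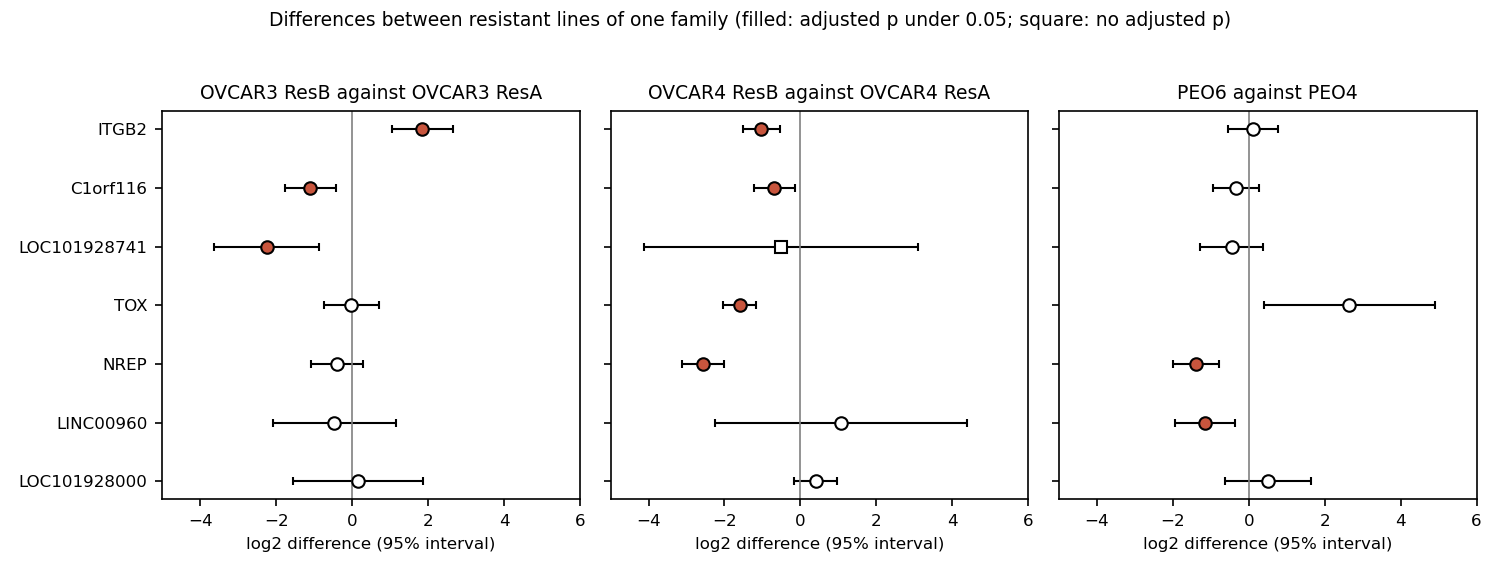
DESeq2 log2 difference with its 95% interval between resistant lines of 1 origin (ResB against ResA in the OVCAR3 and OVCAR4 families, PEO6 against PEO4) for the 7 genes; filled points have an adjusted p under 0.05, and a square marks the comparison with no adjusted p. NREP differs in the OVCAR4 and PEO comparisons and not detectably in OVCAR3, where its interval runs from -1.07 to 0.28.

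The partners and ligands of the beta2 chain were examined next, since CD18 needs an alpha chain to reach the surface. Levels of the 4 alpha chains were near 0 in every library: ITGAM did not exceed 0.49 TPM, ITGAX 0.3, ITGAL 0.115 and ITGAD 0.0181. Of 7 combinations with an adjusted p, none was called higher and 2 were called lower, ITGAM in PEA2 (-3.01 ± 0.81) and ITGAX in PEO4 (-2.86 ± 1.07, DESeq2 adjusted p = 0.0252), of which 0 or 1 were called when a replicate was left out. FERMT3, the kindlin of blood cells that activates integrins, reached 1.14 TPM at most. The RNA of ITGB2 was thus present, at up to 44.4 TPM, in lines with little RNA of the chains it is known to pair with, and no protein was measured. In bulk RNA, fewer cells with a transcript and less of it per cell cannot be told apart.

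Ligands of the beta2 integrins were called higher in 5 and lower in 11 of 36 tested combinations, beside the 15.0% and 14.8% over all genes. The same shares are the background of every gene list below. ICAM1, the main ligand, went in opposite directions in 2 derivatives of OVCAR3, lower in ResA (-2.86 ± 0.31, DESeq2 adjusted p = 8.78e-19) and higher in ResB (1.89 ± 0.35, adjusted p = 5.29e-06), and lower in OVCAR4 ResA, OVCAR4 ResB and PEO6. F11R, a junctional adhesion molecule, was higher in PEA2 (1.65 ± 0.22) and lower in PEO4 (-0.61 ± 0.17) and PEO6 (-1.44 ± 0.22). ICAM5, a ligand best known from neurons, was higher in OVCAR3 ResA (2.02 ± 0.44) and PEA2 (2.28 ± 0.61) and lower in OVCAR4 ResA (-1.60 ± 0.38) and OVCAR4 ResB (-1.67 ± 0.38). Integrin activators, the talin, kindlin and RAP1 genes among them, were called higher in 7 and lower in 12 of 51, with RAP1B, the most abundant at a mean of 164 TPM, lower in PEA2 (-0.89 ± 0.21) and PEO4 (-0.51 ± 0.17) and FERMT1, the kindlin of epithelia, higher in 2 and lower in 2. Left-out replicates moved these counts, to 3 ligands higher without replicate 1, 6 lower without replicate 2 or 3, and 3 activators higher without replicate 1 or 2.

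Other integrin beta chains were called higher in 20 and lower in 8 of 48 combinations. ITGB8, which pairs with the alpha V chain and activates latent TGF-beta, was higher in PEA2 (3.23 ± 0.25), PEO6 (2.20 ± 0.21), PEO4 (1.32 ± 0.16), OVCAR4 ResB (1.27 ± 0.32) and OVCAR4 ResA (1.03 ± 0.36). ITGB3 was higher in OVCAR4 ResA (3.86 ± 0.55), OVCAR4 ResB (3.69 ± 0.53), PEO6 (3.41 ± 0.47) and OVCAR3 ResB (3.01 ± 0.67) but lower in PEA2 (-5.54 ± 0.40). ITGB6, an epithelial beta chain that also activates latent TGF-beta, was called in the most pairs, higher in OVCAR3 ResA (2.08 ± 0.16), OVCAR3 ResB (1.51 ± 0.46), OVCAR4 ResA (2.34 ± 0.42) and OVCAR4 ResB (2.13 ± 0.41) and lower in PEO4 (-2.50 ± 0.21) and PEO6 (-1.75 ± 0.22). ITGB1, the chain common to most adherent cells, averaged 674 TPM over all libraries against 9.64 TPM for ITGB2. Both OVCAR4 calls of ITGB8 were lost with edgeR, with limma and without replicate 2 or 3, and its other calls under no alternative. The OVCAR3 ResB call of ITGB6 was lost with edgeR, with limma and when any 1 replicate was left out. That of ITGB3 in OVCAR3 ResB was lost with limma and without replicate 3. The balance of the calls over the list shifted with the test, as limma on log2(TPM + 1) called 10 higher.

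**Figure D4:**
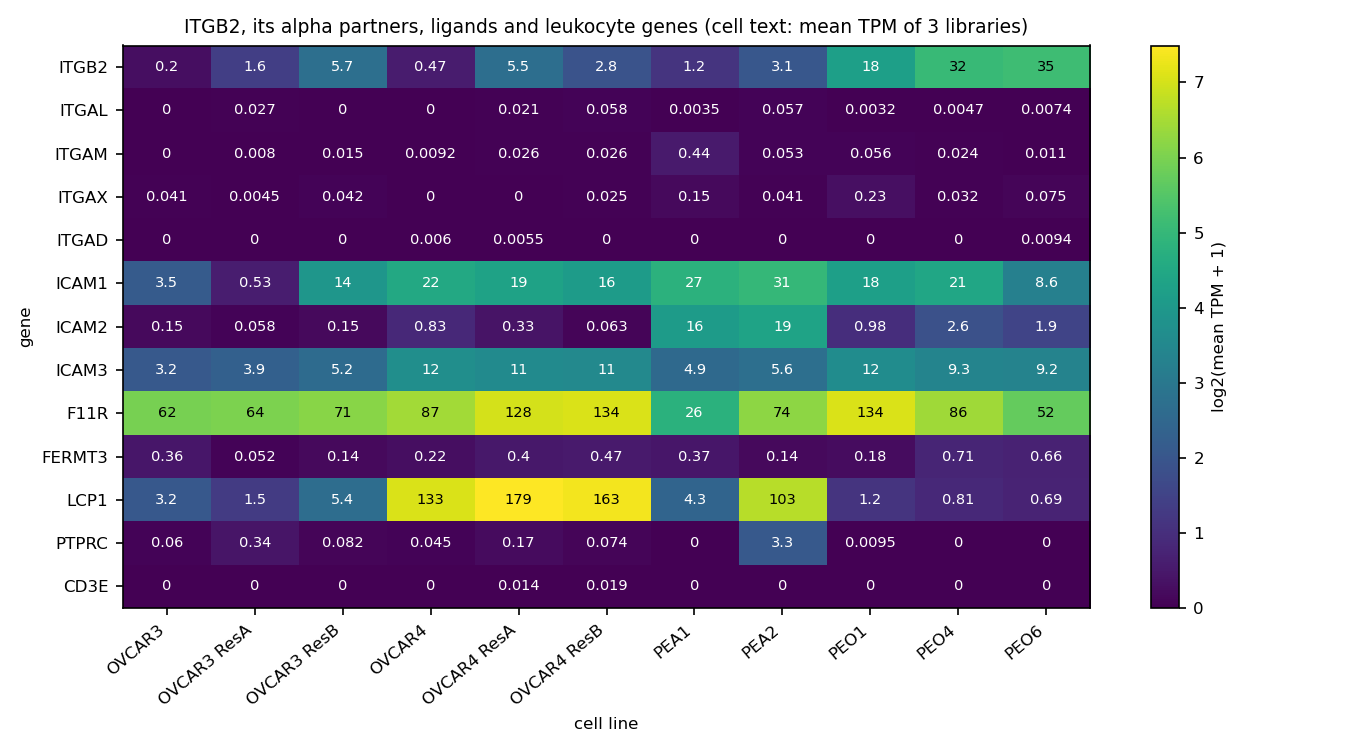
Heat map of mean TPM per line (numbers in cells, colour as log2 of the mean TPM + 1) for ITGB2, its alpha chains, its ligands, FERMT3 and the leukocyte genes LCP1, PTPRC and CD3E in the 11 lines. ITGB2 reaches 35.2 TPM in PEO6, whereas the alpha chain rows stay near 0 and CD3E did not exceed 0.0558 TPM in any library.

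Because ITGB2 and TOX are best known from leukocytes, 10 leukocyte markers were counted. They were called higher in 6 and lower in 4 of 30 tested combinations, near the 15.0% and 14.8% over all genes. The counts were 3 higher without replicate 2 or 3 and 2 lower without replicate 1 or 2. In the OVCAR4 family and PEA2 their sum was carried by LCP1, an actin-bundling protein also made by many carcinomas, which reached 262 TPM. The sum ran from 4.32 to 5.11 TPM in OVCAR3, from 2.47 to 3.56 in OVCAR3 ResA and from 5.6 to 9.3 in OVCAR3 ResB. It ran from 89.3 to 185 TPM in OVCAR4, from 46.9 to 263 in OVCAR4 ResA and from 45.7 to 234 in OVCAR4 ResB. In the PEO family, where ITGB2 was highest, the sum was 4.36 to 4.68 TPM in PEO1 and lower in PEO4 (1.86 to 2.21) and PEO6 (1.92 to 3.09). PTPRC (CD45), carried by nearly all leukocytes, was at 0 in all PEO4 and PEO6 libraries, and CD3E was at 0 in 9 lines. The sum was higher in PEA2, at 97.0 to 137 TPM against 6.72 to 12.6 in PEA1, and PTPRC reached 3.57 TPM there, against 0 in PEA1. The sum of OVCAR3 ResB also lay above that of OVCAR3, and PTPRC was called higher in OVCAR3 ResA (2.39 ± 0.77, DESeq2 adjusted p = 0.006), a call lost when any 1 replicate was left out. The part of these markers in the ITGB2 differences was not tested.

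Relatives of TOX were called in both directions. TOX2 was higher in PEA2 (5.01 ± 0.43, DESeq2 adjusted p = 2.98e-29) and lower in PEO4 (-2.30 ± 0.30), PEO6 (-2.91 ± 0.37) and OVCAR3 ResA (-0.89 ± 0.35). TOX3 was lower in OVCAR3 ResA (-6.42 ± 0.74) and had a mean of 2.53 TPM in PEA2 against 0 in PEA1. In all, 2 combinations were called higher and 4 lower of 11 tested, and TOX4 was not analysed here.

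The genes of TGF-beta signalling, to which NREP is linked, were called higher in 19 and lower in 17 of 77 combinations. TGFB2, a ligand, was lower in OVCAR3 ResA (-6.88 ± 0.25), PEO4 (-3.66 ± 0.60), PEA2 (-2.80 ± 0.23) and OVCAR3 ResB (-1.71 ± 0.34) and was called higher in no pair. In the OVCAR4 lines, where NREP fell most, it was not called (0.90 ± 0.40 and 0.29 ± 0.39), while the receptor gene TGFBR2 was higher there (1.88 ± 0.52 and 2.82 ± 0.54). TGFBR2 was higher also in PEA2 (1.87 ± 0.26) and lower in OVCAR3 ResA (-1.46 ± 0.13). Its OVCAR4 ResA call was lost with edgeR, with limma and without replicate 2 or 3, and its OVCAR4 ResB and PEA2 calls with limma only. TGFB1, the ligand called in the most pairs, was higher in OVCAR3 ResB (1.34 ± 0.40), OVCAR4 ResA (1.46 ± 0.38) and OVCAR4 ResB (1.15 ± 0.39) and lower in PEO4 (-1.10 ± 0.25) and PEO6 (-1.93 ± 0.25). Both OVCAR4 calls of TGFB1 were lost with edgeR, with limma and without replicate 2 or 3. Its OVCAR3 ResB call was lost with limma and without replicate 1 or 2, its PEO4 call with limma only, and its PEO6 call under no alternative. SMAD2, the signal transducer with the highest mean level of the list (45 TPM), was called higher in 1. Without replicate 2 the count called higher over the list was 9.

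Epithelial genes moved with C1orf116 in 1 family above all. Transcription and splicing regulators of epithelia were called higher in 21 and lower in 8 of 63 combinations, and 9 of 9 were higher in PEA2. The splicing factor ESRP1 was at 0.0231 TPM or less in PEA1 and at 100 to 120 TPM in PEA2. In the other pairs between 1 and 3 of the 9 were called higher. KLF5 was higher in PEO4 (1.97 ± 0.17), PEA2 (1.24 ± 0.24), PEO6 (1.15 ± 0.27) and OVCAR3 ResA (0.72 ± 0.11), whereas the ETS factor EHF went both ways, as in OVCAR4 ResA (3.55 ± 0.36) and PEO4 (-5.59 ± 0.23). Another 5 genes of the differentiated subtype signature, PTGER2, DTX4, SLC37A1, MYO5C and ALS2CL, were called higher in 23 and lower in 2 of 35. These 5 and C1orf116 were singled out by the study on these same samples, so the count is not independent evidence of a direction. PTGER2, a prostaglandin E2 receptor gene, was higher in 5 pairs, as in OVCAR3 ResB (2.48 ± 0.45) and PEO4 (2.47 ± 0.19), and DTX4 was higher in 5, as in OVCAR4 ResB (5.02 ± 0.47), and lower in OVCAR3 ResA (-0.75 ± 0.12). With limma on log2(TPM + 1) 10 were called higher, and without replicate 2 the count was 15. Among markers of other cells the cultures could hold, fibroblast and mesothelial genes were split, with 11 higher and 11 lower of 38. Endothelial genes were called higher in 5 and lower in 0 of 18 (1 lower by edgeR). Without replicate 1 or 2 the fibroblast and mesothelial count called lower was 7, and without replicate 2 or 3 the endothelial count called higher was 2 or 3. The endothelial sum ran from 3.01 to 14.4 TPM in OVCAR3 ResB and from 5.68 to 8.76 in PEA2 and was under 2 TPM elsewhere.

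In GRCh38.p14 the members lie on 6 chromosomes: ITGB2 on chromosome 21 (44885953 to 44928815), C1orf116 on chromosome 1 (207018522 to 207032756), TOX on chromosome 8 (58805412 to 59119147), LINC00960 on chromosome 3 (75672281 to 75679303) and LOC101928000 on chromosome 17 (5111935 to 5114382). LOC101928741 (66205123 to 66209446) and NREP (111728802 to 111976932) share chromosome 5 but are far apart.

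Genes beside the members were then read in the same libraries. TOX-DT, a non-coding RNA listed as LOC100505501, begins 62 bases from TOX and is divergent to it. OVCAR3 held 10.2, 12.2 and 12.5 TPM of TOX-DT, ResA 6.69, 8.33 and 7.91, and ResB 5.94, 6.5 and 6.29. OVCAR4 held 22.3, 19.9 and 20.6 TPM, ResA 16.1, 7.44 and 14.7, and ResB 10.3, 8.34 and 6.64. Each resistant OVCAR library lay below its sensitive line, OVCAR4 ResA included, where TOX itself overlapped. PEA1 held 2.32, 2.74 and 2.83 TPM and PEA2 0.0634, 0.149 and 0.12. PEO1 held 2.79, 3.76 and 3.33 TPM, PEO4 0.496, 0.527 and 0.227, and PEO6 0.941, 1.88 and 0.645. TOX-DT was thus separate and lower in all 7 pairs, as 1 of the 10 genes whose libraries were separate in 1 direction in every pair. It was picked for its place beside TOX, which was itself chosen for being lower in these pairs.

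DESeq2 called TOX-DT lower in 6 pairs, with log2 fold changes of -4.53 ± 0.91 in PEA2 (adjusted p = 3.6e-06), -2.95 ± 0.64 in PEO4 (adjusted p = 3.08e-05), -1.89 ± 0.42 in OVCAR4 ResB, -1.60 ± 0.59 in PEO6, -1.31 ± 0.43 in OVCAR4 ResA and -0.78 ± 0.24 in OVCAR3 ResA. In OVCAR3 ResB it was not called (-1.01 ± 0.44, adjusted p = 0.184). Leaving out replicate 2 or replicate 3 reduced the calls to 2. Over the 11 line means TOX-DT and TOX had a Pearson's r of 0.94 on the log2(TPM + 1) scale, a description over lines that share families. On the other side of TOX, NSMAF, 145558 bases away, had fold changes below 0 in 7 pairs and was called in none (DESeq2, Benjamini-Hochberg).

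ITGB2-AS1, which overlaps ITGB2 on the other strand, was above 0 in 7 pairs by DESeq2 and its libraries were separate and higher in 6, all but PEA2. It was called in 3, OVCAR3 ResA (3.38 ± 1.13, adjusted p = 0.00804), OVCAR3 ResB (3.95 ± 1.28, adjusted p = 0.0305) and PEO6 (1.28 ± 0.44, adjusted p = 0.0121). Both OVCAR3 calls were lost when any 1 replicate was left out, and the PEO6 call without replicate 1 or without replicate 2. Its r with ITGB2 over the line means was 0.49. ZNF232, the coding gene that overlaps LOC101928000, was called lower in OVCAR3 ResA (-0.72 ± 0.29) and PEA2 (-2.71 ± 0.29, adjusted p = 3.35e-19) and had an r of 0.69 with it. In OVCAR4 ResB all ZNF232 libraries lay above those of OVCAR4, opposite to LOC101928000. As the strand of counting is not given, whether reads of these overlapping pairs were told apart is not known. Beside C1orf116, PFKFB2, 1659 bases away, was called higher in 1 pair and lower in 2, and FCAMR did not exceed 0.143 TPM. Beside LOC101928741, MAST4, a kinase gene 386946 bases away, was higher in PEA2 (5.90 ± 0.41, adjusted p = 3.22e-45) and OVCAR3 ResA (0.80 ± 0.25) and was not called in the other pairs, with an r of 0.68 with the member, while SREK1 was higher in 1 pair and lower in 1. Beside NREP, STARD4 was called higher in 2 and lower in 1 and EPB41L4A higher in 2 and lower in 3. Beside LINC00960, ZNF717 was called in no pair and LOC100996350 did not exceed 0.182 TPM. Beside ITGB2, PTTG1IP was called higher in 1 pair and C21orf67 in none, and beside LOC101928000, ZFP3 was called higher in 2 and lower in 2 and USP6 in none.

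**Figure D5:**
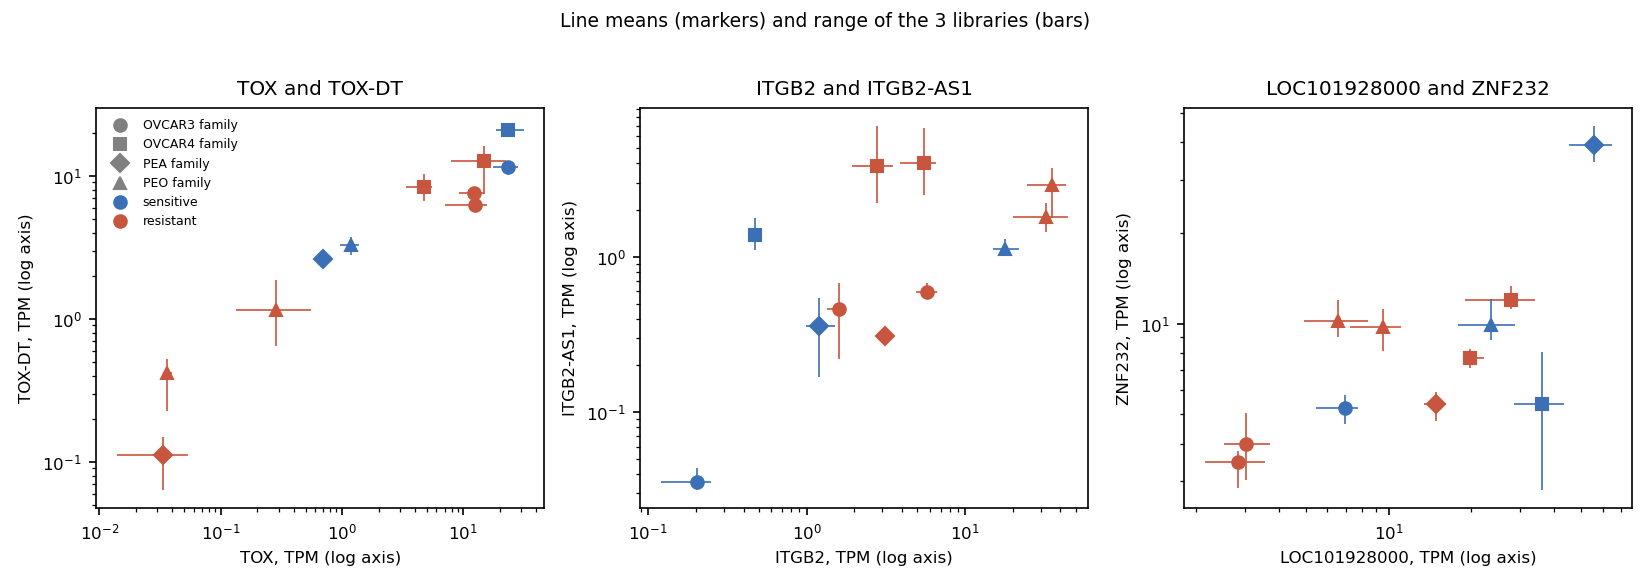
Line means of TPM on log axes, with bars from the lowest to the highest of 3 libraries, for TOX and TOX-DT, ITGB2 and ITGB2-AS1, and LOC101928000 and ZNF232; marker shape gives the family and colour the sensitive (blue) or resistant (red) role. TOX and TOX-DT fall along a line (r = 0.94 on log2(TPM + 1)), with weaker relations for ITGB2 and ITGB2-AS1 (0.49) and for LOC101928000 and ZNF232 (0.69).

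Among the members, C1orf116 and LOC101928741 ran most alike over the 11 line means (Pearson's r of 0.86 on log2(TPM + 1)). ITGB2 had r of 0.71 with C1orf116 and 0.67 with LOC101928741. The genes that were lower ran less alike, with 0.54 for NREP and LINC00960. Over all expressed genes, those most like each member were KLF3, a Krüppel-like repressor gene, for C1orf116 (0.965), ELOVL6, a fatty acid elongase gene, for TOX (0.966), CLN6 for LINC00960 (0.97), SLC16A5 for LOC101928741 (0.946), TAPT1 for ITGB2 (0.936), AK5, an adenylate kinase gene, for LOC101928000 (0.931) and FAR2, a fatty acyl-CoA reductase gene, for NREP (0.921). Next came VPS13B and ATP8B1 for ITGB2, SLC25A26 and AHCYL1 for C1orf116, LOC554223 and INF2 for LOC101928741, SLIRP and NDUFB4 for TOX, PPP1R14B and FAM189B for NREP, NOP10 and NSMAF for LINC00960, and AAED1 and RPL26L1 for LOC101928000. The fold changes of KLF3 were above 0 and those of FAR2 and AK5 below 0 in all 7 pairs. Those of TAPT1, SLC16A5, ELOVL6 and CLN6, each also the gene most like a member, went both ways. These genes were picked for likeness to the members over the same lines, so a common direction is partly built in. The points are 11 lines of 4 origins, so the values describe these lines only, and the ranking changed with Spearman's rho, which named none of the same 3 nearest genes for ITGB2, C1orf116 and LOC101928741.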

How the data were processed

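Messenger RNA of 33 libraries (11 HGSOC lines, 3 replicates each) was selected by poly(A) and sequenced by the authors. The authors converted the reads with DRAGEN software and ran the nf-core/rnaseq pipeline on GRCh38, and the deposited tables hold salmon estimated counts per gene and TPM values (transcripts scaled to gene length and library total), both made by the authors before deposit. The annotation release and strand setting are not given in the sources used here. Of the estimated counts, 88.4% were whole numbers, and all were rounded for the count tests. Mitochondrial rRNA took 1.12% to 14.8% of counts, which lowers the TPM of other genes alike within a library. The 2 LOC symbols were matched to RefSeq by gene ID.

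As in the study, DESeq2 (version 1.42.0, R 4.3.3) was fitted to each comparison with replicate and line as terms, with Wald tests and Benjamini-Hochberg adjustment over all genes that DESeq2's filters (outlying counts, low means) left, at 0.05. A likelihood-ratio test compared the 4 sensitive lines. Only libraries of the lines compared entered each fit. No replicate pair agreed within sampling noise (chi-square per degree of freedom 30.6 to 534), so each library counted as 1. Whether replicates were separate cultures is not stated, so p-values measure the spread between these samples, which may be technical. The labels and files give no run or batch. The numbers 1 to 3 paired the samples in OVCAR3 ResA against OVCAR3 (correlations of same-numbered deviations 0.816, 0.347 and 0.68) and in OVCAR4 ResB against ResA (0.837, 0.744 and 0.712), and not in the other 8 comparisons. Count ratios and their 95% exact intervals cover counting error only. Alternatives were edgeR (version 4.0.16) quasi-likelihood tests, no block, a filter of 10 counts in 3 libraries, all 33 libraries in 1 fit, limma (version 3.58.1) on log2(TPM + 1), and leaving out each replicate. The fits were tested on simulated data. Python 3.11.15 with pandas 2.3.3, numpy 2.4.6 and scipy 1.17.1 did the rest.

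Named were the 7 members, up to 4 genes of each list (first those with the highest mean TPM or called in the most pairs), the nearest and overlapping RefSeq genes of each member, the 3 genes most like it by Pearson's r over line means (genes of at least 1 TPM on average), and the 3 genes of 1 direction in all pairs with the smallest weakest adjusted p of 0.05 or more. The members and lists were chosen with earlier results of these data known. 1 further list fixed for C1orf116 is not reported here.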

Additional observations from a re-analysis of the deposited data

Results flagged for a closer look

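Of the differences between 2 resistant lines of 1 origin, 9 passed the test of the difference itself (DESeq2 with replicate block, adjusted p under 0.05). In these the gene lay at unlike levels in the 2 lines. ResB of OVCAR3 exceeded ResA in ITGB2 by 1.85 on the log2 scale and lay below it in C1orf116 (-1.1) and LOC101928741 (-2.25). ResB of OVCAR4 lay below ResA in NREP (-2.56), TOX (-1.6), ITGB2 (-1.03) and C1orf116 (-0.69). PEO6 lay below PEO4 in NREP (-1.4) and LINC00960 (-1.15). The NREP and TOX differences in OVCAR4 kept their call under every alternative, and each of the other 7 lost it without at least 1 replicate. No group of 4 or more samples of 1 kind was available for a search for single outlying libraries.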

How the results depend on the processing

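No direction of a member in a resistant-sensitive pair reversed under the alternatives (389 values, of which 37 moved by more than the replicate spread). The members were chosen for these directions in the same libraries, so this restates the choice. A kept sign can also mean little, as for LOC101928741 in OVCAR4 ResB without replicate 1 (0.04 ± 4.83). Counts of called genes were less stable. With all 33 libraries in 1 fit they were 4938 (8146 as reported), 3056 (1255), 4559 (1784) and 5722 (2853) in OVCAR3 ResA, OVCAR3 ResB, OVCAR4 ResA and OVCAR4 ResB, and 5042 (2202), 2939 (5218) and 5013 (3043) between the OVCAR3, OVCAR4 and PEO resistant lines. With limma on log2(TPM + 1) they were 0 in OVCAR3 ResB (2697 at an unadjusted p under 0.05), 0 in OVCAR4 ResA (4066), 1 in OVCAR4 ResB (4608), 3624 in PEO4 (5820 as reported), 3685 in PEO6 (6962 as reported), 1 between the OVCAR3 resistant lines (3591) and 167 between PEO6 and PEO4. The edgeR test gave 531 and 1402 in OVCAR4 ResA and ResB.

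Without the replicate block the counts were 3462 in OVCAR4 ResA, 4765 in OVCAR4 ResB and 2094 between them, and LINC00960 between them was -0.71 (log2). It was -0.67 with all libraries and -0.04 with limma, against 1.07 as reported. In the same way TOX between OVCAR3 ResB and ResA was 0.02 with all libraries. The cause was not tested.

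Leaving out 1 replicate, the counts ran from 4920 to 5772 in OVCAR3 ResA, 455 to 1934 in OVCAR3 ResB, 292 to 6221 in OVCAR4 ResA, 631 to 7241 in OVCAR4 ResB, 4283 to 6999 in PEA2, 2921 to 6200 in PEO4 and 3712 to 5260 in PEO6. They ran from 791 to 3724, 1847 to 4308 and 752 to 5223 between the OVCAR3, OVCAR4 and PEO resistant lines. ITGB2 between PEO6 and PEO4 ran from -0.24 to 0.47, and TOX between OVCAR3 ResB and ResA from -0.23 to 0.31. Of 159 values between resistant lines, 128 kept direction and call, 22 lost the call, 3 gained it and 6 reversed. Alternatives for gene lists and TOX-DT were chosen after seeing the data. With 3 libraries a line, LOC101928741 at under 10 counts could not be resolved in OVCAR4.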
